A study of Mus musculus with 10 samples.

Results

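The difference between the suprabasal and the basal response to progerin was described for 8697 loci of mouse skin keratinocytes. Progerin is the truncated form of lamin A, a structural protein of the nuclear lamina, that accumulates in Hutchinson-Gilford progeria syndrome. The loci were those present in both of the authors' expression tables, with a test status of OK in both and a level of at least 5 in the higher genotype group of each table. They make up 8697 of 12197 loci listed in either table and of 10609 listed in both. Of the 10583 shared loci with status OK in both tables, 1886 did not reach the minimum level. At that limit, Dock6 stayed outside with 4.9995 as the higher value of its basal pair, and Ext1 stood inside with 5.002 as the higher value of its suprabasal pair.

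The samples were keratinocytes sorted by flow cytometry from the skin of FVB/N mice on postnatal day 4. Each layer held 3 wild type samples and 2 samples of bitransgenic mice that model the disease, 10 samples in all. The labels name neither the promoter that drives progerin nor the sort markers of the layers. For each of the 4 groups the tables hold 1 pooled value, in FPKM, fragment counts scaled to transcript length and library size, so no spread between animals could be computed.

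In the epidermis, basal keratinocytes attached to the basement membrane divide and feed the suprabasal layers. Suprabasal cells stop dividing, switch keratins from Krt5 and Krt14 to Krt1 and Krt10, and then build the cornified envelope from cross-linked proteins such as loricrin, involucrin and the small proline-rich proteins, embedded in ceramide-rich lipid. The question addressed here was whether the bitransgenic genotype moved a gene by a different amount in the 2 layers.

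For every locus the log2 ratio of bitransgenic over wild type, with 1 FPKM added to both values, was taken in each layer. The layer difference is the suprabasal ratio minus the basal ratio. A positive layer difference means a bitransgenic value relatively higher in the suprabasal than in the basal layer. The same number is the change that the genotype made to the contrast between the layers. A two-sided Wald test compared the deposited log2 fold changes of the layers, with standard errors implied by the deposited p-values and Benjamini-Hochberg adjustment over all 8697 loci. The layers were treated as independent, although some title stems recur in both.

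Layer markers ran in the direction of the labels in both genotypes, apart from Krt1. The suprabasal over basal level was 0.456-fold in wild type and 0.391-fold in bitransgenic skin for the merged Krt14 and Krt16 locus, and 0.439-fold and 0.388-fold for Itga6. Krt10 stood at 2.83-fold and 1.47-fold, and Krt1 at 1.98-fold and 0.927-fold, so Krt1 did not separate the bitransgenic layers. The tables were normalized separately, so these layer folds also hold any difference of scale between them. Of 16 melanocyte markers 5 had a single-symbol locus in both tables, and their summed level was 50.4 and 37.7 FPKM in wild type and bitransgenic basal cells against 1821 and 3351 FPKM in suprabasal cells. Of 21 fibroblast and mesenchymal markers 10 had such a locus, with sums of 536, 369, 591 and 704 FPKM in wild type basal, bitransgenic basal, wild type suprabasal and bitransgenic suprabasal cells. For 24 leukocyte markers 3 loci gave sums between 59.0 and 74.3 FPKM, and no endothelial, muscle, erythroid or Merkel cell marker had a single-symbol locus in both tables. Of 12 Schwann and nerve markers 5 had one, with sums of 39.4, 34.6, 81.7 and 92.9 FPKM in the same order of groups, and of 19 adipocyte and sebaceous markers 10, with sums of 241, 344, 1896 and 1724 FPKM. The part of these cells in the results below was not tested. The Xist locus stood at 0.258 and 108 FPKM in wild type and bitransgenic basal cells and at 0.236 and 103 FPKM in suprabasal cells, so this transcript of female cells differed between the genotype groups in both layers. Y-linked transcripts were present in all 4 groups, with Ddx3y at 32.1 and 20.7 FPKM in basal and 31.2 and 14.1 FPKM in suprabasal cells and Eif2s3y at 35.2 and 23.0 against 38.9 and 28.6 FPKM. Lmna itself, the gene that progerin derives from, stood at 564 and 536 FPKM in basal and 460 and 397 FPKM in suprabasal cells, with a layer difference of -0.14.

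The median response was alike in the 2 layers, which does not show agreement locus by locus. Basal cells had a median log2 ratio of -0.09, and suprabasal cells one of -0.09. The layer difference had a median of -0.02 and an SD over loci of 0.69, with its quartiles at -0.35 and 0.33. It was below 0 at 4484 loci, which is 51.6% of those measured. In 1 layer or both 1281 of the 8697 loci (14.7%) reached the minimum level through 1 genotype only. Such a locus had to differ between the genotypes of that layer, so counts and medians over a gene list describe the loci that passed and support nothing on their own. A difference of at least 1 was found at 467 loci (5.37%), and one of at most -1 at 378 loci (4.35%). After adjustment 3 loci differed between the layers, or 0.0345% of the loci tested, against 252 loci (2.9%) at an unadjusted p under 0.05. Of these 252, 121 (1.39%) were relatively higher in suprabasal cells and 131 (1.51%) relatively lower. The number under 0.05 without adjustment is smaller than the share the threshold alone would give, so single loci that did not pass the adjustment are given below as descriptions. Their fold-change difference is that of the deposited log2 fold changes, with no FPKM added, and its 95% interval is an unadjusted Wald interval; an interval that leaves out 0 is the same as an unadjusted p under 0.05. The median standard error of the layer difference was 0.62 on the log2 scale, and it was 0.99 among the 845 loci with a layer difference of at least 1 in size. The smallest p in the tables is 5e-05, which bounds the evidence that a locus with a change in 1 layer only can bring to the test.

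**Figure D1:**
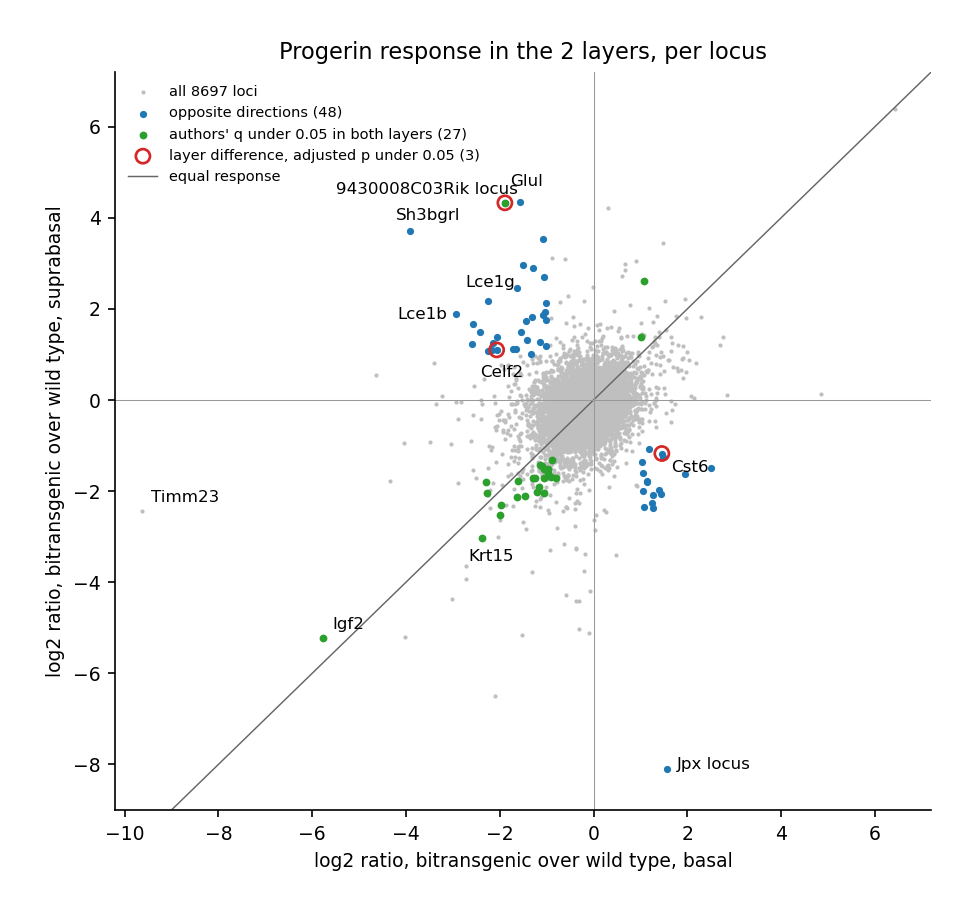
Log2 ratio of bitransgenic over wild type in basal (x axis) against suprabasal cells (y axis), 1 point per locus, with 1 FPKM added before the ratio; blue marks the 48 loci with ratios of at least 1 in size and opposite sign, green the 27 loci with a deposited q under 0.05 in both layers, and red rings the 3 loci past the adjusted Wald test. The green points lie mostly along the line of equal response in the lower left, while Cst6 lies at the lower right and Celf2 and the 9430008C03Rik locus at the upper left.

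Cst6 and Celf2 were the loci with a single symbol whose response differed between the layers. Cst6 (chr19:5344705-5349574, mm10) encodes cystatin E/M, an inhibitor of the lysosomal proteases that act in cornification. Its level was 3.55 and 11.5 FPKM in wild type and bitransgenic basal cells and 104 and 45.5 FPKM in suprabasal cells. The bitransgenic value was thus the higher one in basal and the lower one in suprabasal cells. Cst6 reached the minimum level in basal cells through the bitransgenic value only, so a basal ratio above 0 was set by the filter. The filter did not set its suprabasal ratio. The fold change differed by -2.89 on the log2 scale (95% interval -4.04 to -1.73), and the Wald test on the authors' fold changes and p-values gave a Benjamini-Hochberg adjusted p = 0.00392. Put as a contrast between layers, Cst6 was 29.3-fold higher in suprabasal than in basal cells of wild type skin and 3.96-fold higher in bitransgenic skin. With standard errors taken from the deposited test statistics in place of the deposited p-values the adjusted p of Cst6 was 0.937, so the call rests on that choice.

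Celf2 (chr2:6539694-7509563), an RNA-binding regulator of splicing, ran the other way. Its level was 9.16 and 1.43 FPKM in wild type and bitransgenic basal cells and 14.1 and 31.3 FPKM in suprabasal cells. The bitransgenic basal value lay apart below the other 3. Celf2 reached the minimum level in basal cells through the wild type value only, so a basal ratio below 0 was set by the filter. The annotated short RNA genes Gm26315 and Gm24340 lie within the locus, and their reads cannot be told apart from those of Celf2. The fold change differed by 3.84 (95% interval 2.10 to 5.58, adjusted p = 0.0457 by the same Wald test on the authors' values). The call was lost with standard errors from the test statistic of the authors (adjusted p = 0.99997) and when merged loci were left out (adjusted p = 0.066).

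The third call was a merged locus that holds 9430008C03Rik and the predicted genes Gm23925 and Gm26003. It stood at 60.1 and 15.5 FPKM in wild type and bitransgenic basal cells and at 19.8 and 417 FPKM in suprabasal cells. The bitransgenic suprabasal value lay far above the other 3, and the fold change differed by 6.35 (95% interval 3.98 to 8.73, adjusted p = 0.00137 by the Wald test on the authors' values). Reads of its 3 genes cannot be told apart in the tables. Without the 65 loci at which 1 group value stands alone, a criterion described below, Cst6 was the 1 locus called.

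Kprp, a keratinocyte proline-rich protein of the cornified envelope, did not reach the minimum level in basal cells and is no member. Its level was 2.57 and 0.478 FPKM in wild type and bitransgenic basal cells and 3.12 and 16.8 FPKM in suprabasal cells. The layer difference was 3.38 on the scale with 1 FPKM added. With no minimum level its unadjusted Wald p was 0.000139 and the adjusted p was 0.195. In the authors' deposited table its q was 0.279 in basal and 0.0161 in suprabasal cells. Of the pair of marker genes given for this response, Cst6 passed the adjusted test of the layer difference, with the limits given above. Kprp did not pass it with no minimum level. Since both were given for this same response, their values are no separate support for it.

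**Figure D2:**
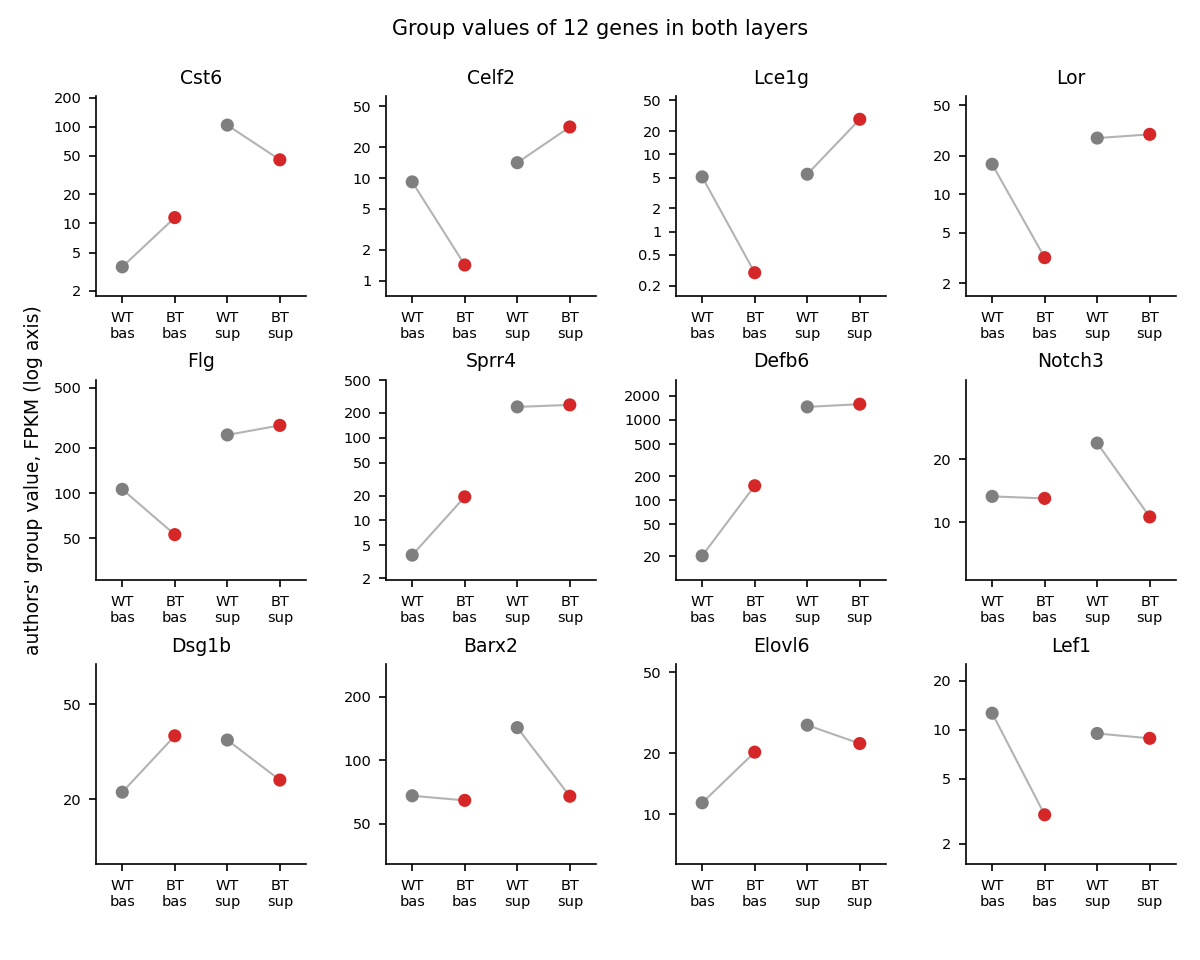
Group values in FPKM (log axis, own range per panel) of 12 genes in wild type (WT, grey) and bitransgenic (BT, red) basal (bas) and suprabasal (sup) cells, with a line joining the genotypes of a layer; each point is 1 pooled value with no error bar. Cst6 goes from 3.55 to 11.5 in basal cells and from 104 to 45.5 in suprabasal cells, and Lce1g from 5.12 to 0.295 and from 5.54 to 28.5.

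Genes of early differentiation stood almost uniformly on the lower side of the layer difference. Of 30 listed genes 25 loci were measured. The layer difference was below 0 at 24 of them, against 51.6% of all loci, with a median of -0.52 against -0.02 over all loci. The median log2 ratio was -0.03 in basal and -0.46 in suprabasal cells. Of the 25 loci 2 reached the minimum level of a layer through 1 genotype only. None passed the adjusted Wald test, and 3 of the 25 had an unadjusted p under 0.05, all below 0, against 2.9% of all loci.

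Notch3, a receptor of the pathway that commits basal cells to differentiation, stood at 13.3 and 13.02 FPKM in wild type and bitransgenic basal cells and at 23.9 and 10.6 FPKM in suprabasal cells. The wild type suprabasal value was the high one of the 4. The fold change differed by -1.14 (95% interval -2.04 to -0.24). Krt1, the keratin of the first suprabasal cells, followed the same order with 1725 and 1749.7 FPKM in basal and 3419 and 1622 FPKM in suprabasal cells. Its partner Krt10 stood at 2319 and 1601 FPKM in basal and 6574 and 2354 FPKM in suprabasal cells. The intervals of both keratins were wide, from -4.78 to 2.59 for Krt1 and from -4.23 to 2.33 for Krt10. Mboat2, a lysophospholipid acyltransferase, had the lowest layer difference of the list, -1.35. There the basal values were 2.94 and 8.63 FPKM, while the suprabasal ones were near equal at 16.5 and 15.7 FPKM (fold-change difference -1.62, 95% interval -2.99 to -0.26). Mboat2 reached the basal minimum through the bitransgenic value only, so a basal ratio above 0 was set by the filter. Dusp10, a phosphatase of stress kinases, was the 1 locus above 0, with a layer difference of 0.70 (fold-change difference 0.76, 95% interval -0.74 to 2.27).

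Desmosome and junction genes showed a like distribution. Of 35 listed genes 27 loci were measured, 23 of them below 0 (85.2%, against 51.6% of all loci). Their median layer difference was -0.34 against -0.02 over all loci. No locus passed the adjustment, and 3 of the 27 were under 0.05 without it, all below 0, against 2.9% of all loci. Dsg1b, one of the desmosomal cadherins of the differentiated layers, stood at 21.4 and 36.8 FPKM in wild type and bitransgenic basal cells and at 35.4 and 24.0 FPKM in suprabasal cells. The bitransgenic value was the higher one in basal and the lower one in suprabasal cells, a fold-change difference of -1.34 (95% interval -2.20 to -0.49). Wild type skin therefore had 1.65-fold more Dsg1b in the suprabasal layer, and bitransgenic skin 0.652-fold. Cldn4, a tight junction claudin, crossed in the same way with 35.4 and 50.5 FPKM in basal and 60.3 and 35.7 FPKM in suprabasal cells (fold-change difference -1.27, 95% interval -2.21 to -0.32). The merged Dsg1a and Dsg1c locus stood at 51.8 and 48.0 FPKM in basal and 70.1 and 31.6 FPKM in suprabasal cells. This locus is also in the early differentiation list, so the 2 lists are not independent. The upper end of the list was Cdh3, the P-cadherin of basal cells, at 0.56, and Pkp3, a desmosomal plaque protein, at 0.50.

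**Figure D3:**
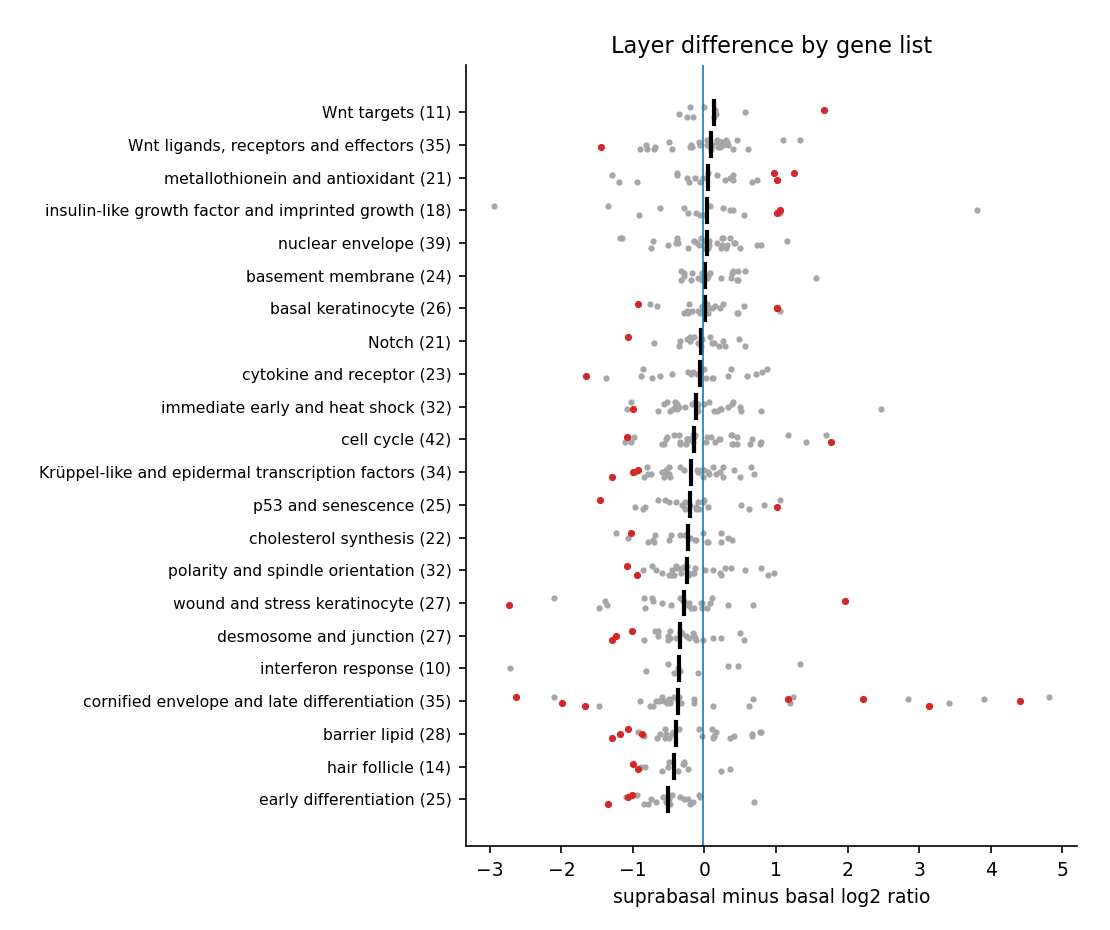
Layer difference of the measured loci (points, number in parentheses) of each gene list with 10 or more loci, with the list median as a black bar and the median of all 8697 loci as a blue line; red points have an unadjusted Wald p under 0.05. The early differentiation median lies at -0.52, and the cornified envelope list spreads from -2.63 to 4.82.

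The cornified envelope list split into members at opposite ends. Of 63 listed genes 35 loci were measured, 22 below 0 (62.9%, against 51.6% of all loci) and 13 above, with a median of -0.37. The spread ran from -2.63 for Cst6 to 4.82 for Lce1b. Past 1 in size were 10 loci above 0 and 5 below. Cst6 passed the adjusted test, and 7 loci were under 0.05 without adjustment, 4 above and 3 below 0. The 6 loci of the late cornified envelope (Lce1) family and Crct1 lay at the top of the list, and the median of the other 29 was -0.48, with 22 below 0. The grouping by family was chosen after the values were seen. Of the 35 loci 15 reached the minimum level of a layer through 1 genotype only, in basal cells 9 through the wild type and 6 through the bitransgenic value.

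The Lce1 genes encode small cysteine-rich proteins that are laid down late in envelope assembly. Lce1g (chr3:92750148-92752338) stood at 5.12 and 0.295 FPKM in wild type and bitransgenic basal cells and at 5.54 and 28.5 FPKM in suprabasal cells. The wild type layers were alike, and the bitransgenic ones lay below and above them. The suprabasal over basal level was 1.08-fold in wild type and 96.7-fold in bitransgenic skin. Lce1b stood at 13.1 and 0.840 FPKM in basal and 12.02 and 46.8 FPKM in suprabasal cells, and Lce1d at 5.43 and 2.19 against 13.3 and 61.7 FPKM. The 95% interval of the fold-change difference was -0.83 to 12.68 for Lce1b and 1.04 to 6.01 for Lce1d. Lce1a1, Lce1f, Crct1 and 2310050C09Rik ran in the same direction, with layer differences of 3.90, 3.42, 2.84 and 2.74. All 7 loci reached the minimum level in basal cells through the wild type value only, so a basal ratio below 0 was set by the filter, and Lce1g, Lce1d and Lce1f stood just above it with 5.12, 5.43 and 5.71 FPKM. Their suprabasal ratios, which the filter did not set, were all at least 1. Of the 7 layer differences 3 had an unadjusted p under 0.05, and none passed the adjustment. The Lce1 genes are near-identical copies, so the authors' counting could have split reads between them, and their levels are not independent.

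The upstream sequences of 4 Lce1 genes and of 2 small proline-rich genes are shown because these neighbouring genes had layer differences of opposite sign. The filter bears on that contrast, since the 4 Lce1 loci reached the basal minimum through the wild type value only. The single-symbol Sprr1b locus and 1 of the 2 Sprr1a loci reached it through the bitransgenic value only. The merged Gm9774 and Sprr1b locus reached it in both genotypes, with a layer difference of -0.59. Each is the 100 bases before the transcription start, on the minus strand of GRCm38.p6, 5′ to 3′, from RefSeq. Capitals mark the longest run of letters shared by the 4 Lce1 windows, CACTGTCTCAC, and the hexamer ATAAAA of the TATA-like box. Of the 7 Lce1, Crct1 and 2310050C09Rik loci 5 had an entry, and Lce1f and Crct1 had none. The window of 2310050C09Rik holds the hexamer and not the shared run, Lce1a1 holds the run and not the hexamer, and the windows of Sprr2f and Sprr4 hold neither.
Lce1a1 (chr3:92648308-92648407): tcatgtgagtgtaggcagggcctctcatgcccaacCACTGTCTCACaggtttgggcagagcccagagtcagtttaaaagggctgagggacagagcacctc
Lce1b (chr3:92656927-92657026): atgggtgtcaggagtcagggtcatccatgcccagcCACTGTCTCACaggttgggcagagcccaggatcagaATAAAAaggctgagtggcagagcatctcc
Lce1d (chr3:92687211-92687310): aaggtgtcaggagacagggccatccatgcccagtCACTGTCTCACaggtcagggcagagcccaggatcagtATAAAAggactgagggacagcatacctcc
Lce1g (chr3:92752339-92752438): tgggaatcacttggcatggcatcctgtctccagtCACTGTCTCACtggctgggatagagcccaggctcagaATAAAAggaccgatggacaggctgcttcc
Sprr1a (chr3:92485882-92485981): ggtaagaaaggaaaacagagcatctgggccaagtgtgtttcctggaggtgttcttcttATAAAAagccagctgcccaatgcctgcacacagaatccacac
Sprr1b (chr3:92438780-92438879): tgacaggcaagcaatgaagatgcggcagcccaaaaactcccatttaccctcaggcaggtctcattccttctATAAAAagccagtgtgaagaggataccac

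The run CACTGTCTCAC begins 65 or 66 bases before the start in the Lce1 windows. Searched on both strands, it was found in 10 of 32851 RefSeq windows of that length (0.0304%), of which 8 belong to Lce1 genes and the others to Col25a1 and Gm36852. ATAAAA was found in 7.07% of the windows. The run was chosen after the sequences were read, and a match describes the letters only.

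Other genes of the epidermal differentiation complex, the gene cluster on chromosome 3 that holds most envelope proteins, were followed from S100a1 to S100a10 (chr3:90511034-93564643). This region holds 33 of the measured loci, of which 15 were above and 18 below 0. Lor, the loricrin that makes up most of the envelope, stood at 17.2 and 3.18 FPKM in wild type and bitransgenic basal cells and at 27.6 and 29.6 FPKM in suprabasal cells. The bitransgenic basal value lay apart below the other 3, and the fold change differed by 2.53 (95% interval 1.0 to 4.06). Lor reached the basal minimum through the wild type value only, so a basal ratio below 0 was set by the filter. Flg, the keratin-bundling filaggrin, followed with 106 and 52.97 FPKM in basal and 243 and 281 FPKM in suprabasal cells (fold-change difference 1.21, 95% interval -0.20 to 2.62). Ivl, the involucrin scaffold of the envelope, stood at 4.14 and 9.29 FPKM in basal and 18.4 and 24.0 FPKM in suprabasal cells, a layer difference of -0.63. Ivl reached the basal minimum through the bitransgenic value only, so a basal ratio above 0 was set by the filter. The opposite signs of the Lor and Ivl basal ratios are thus no result.

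The small proline-rich genes, cross-bridging proteins of the envelope that rise in stressed epidermis, had layer differences on both sides of 0. Of 9 Sprr loci 5 (Sprr2f, Sprr2g, the single-symbol Sprr1b locus, 1 Sprr1a locus and Sprr4) reached the minimum level in basal cells through the bitransgenic value only. This favours a layer difference below 0, and all 5 were below 0. The other 4 had 2 above and 2 below 0. Sprr4 stood at 3.81 and 19.3 FPKM in wild type and bitransgenic basal cells and at 236 and 250.1 FPKM in suprabasal cells (fold-change difference -2.26, 95% interval -4.14 to -0.38). The bitransgenic value was higher in basal cells, and the suprabasal values were near equal. The symbol Sprr1a belongs to 2 loci, with layer differences of -1.47 and -0.73. Sprr1b also belongs to 2 loci. The single-symbol one had -2.10 with an interval from -7.06 to 2.38. The one merged with Gm9774 had -0.59, from 45.8 and 162 FPKM in basal and 131 and 304 FPKM in suprabasal cells. Reads of Sprr copies may likewise have been split. The S100 loci, calcium-binding proteins at the ends of the cluster, had a median of -0.18. Among them S100a8 and S100a9, the alarmins of injured epidermis, had ratios of 1.98 and 2.28 in basal and 1.79 and 1.82 in suprabasal cells, and layer differences of -0.19 and -0.46.

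**Figure D4:**
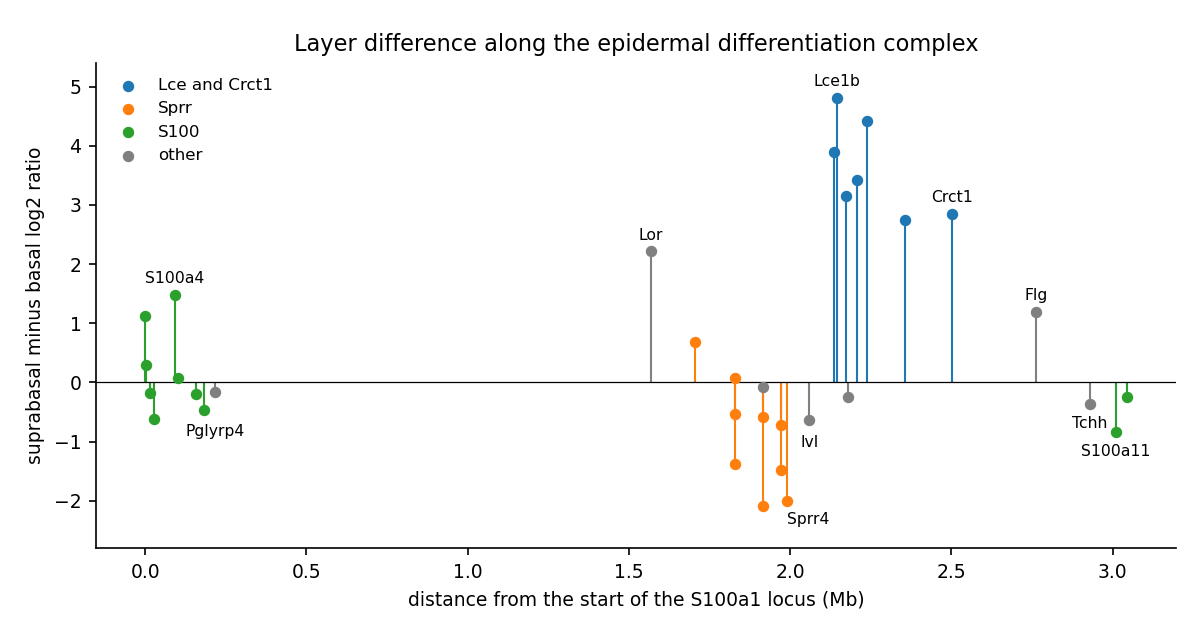
Layer difference of the 33 measured loci of the epidermal differentiation complex (y axis) by distance from the start of the S100a1 locus (x axis, Mb), coloured by gene family; each stem is 1 locus with no error shown. The 7 blue Lce1, Crct1 and 2310050C09Rik stems lie between 2.74 and 4.82. Of the 9 orange Sprr stems 5 belong to loci that passed the basal minimum through the bitransgenic value only, all below 0, and the other 4 have 2 above and 2 below.

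Barrier lipid genes were split in direction. Of 40 listed genes 28 loci were measured, 17 below 0 (60.7%, against 51.6% of all loci) and 11 above. The median layer difference was -0.40, but 5 of the 28, Fa2h among them, reached the minimum level of a layer through 1 genotype only, and over the other 23 it was -0.07. The 28 had a median ratio of 0.39 in basal and 0.10 in suprabasal cells. The summed adipocyte and sebaceous markers given above were likewise higher in bitransgenic basal cells. In suprabasal cells their sum was lower in bitransgenic skin. A sum follows its highest loci and is another measure than a median ratio. The 8 measured adipocyte and sebaceous loci had a median log2 ratio of 0.11 in basal and 0.14 in suprabasal cells. The part of these markers in the barrier lipid values was not tested. No locus passed the adjustment, and 4 were under 0.05 without it, all below 0. Elovl6, a fatty acid elongase, stood at 11.4 and 20.2 FPKM in wild type and bitransgenic basal cells and at 27.5 and 22.3 FPKM in suprabasal cells (fold-change difference -1.13, 95% interval -2.0 to -0.26). Fa2h, which hydroxylates the fatty acids of ceramides, stood at 3.57 and 10.6 FPKM in basal and 17.1 and 17.7 FPKM in suprabasal cells (fold-change difference -1.52, 95% interval -2.75 to -0.28). Sptlc3, a subunit of serine palmitoyltransferase, the entry enzyme of ceramide synthesis, stood at 11.2 and 22.0 against 24.4 and 20.2 FPKM. Elovl4, the elongase of ultra-long acyl chains, stood at 34.7 and 69.1 against 87.0 and 93.5 FPKM. In all 4 genes the bitransgenic basal value lay above the wild type basal value, and it lay below both suprabasal values except in Sptlc3, where it lay between them. At the other end stood Pparg, a lipid-sensing nuclear receptor, with 0.80 and Asah1, an acid ceramidase, with 0.78, each with an interval that includes 0. Cholesterol synthesis genes gave 16 of 22 loci below 0 (72.7%, against 51.6% of all loci) and a median of -0.23.

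Genes of wounded and stressed keratinocytes had a median ratio above 0 in both layers. Of 42 listed genes 27 loci were measured, 21 below 0 in the layer difference (77.8%, against 51.6% of all loci). The 27 had median ratios of 1.31 in basal and 0.87 in suprabasal cells and a median layer difference of -0.29. Of the 27 loci 8 reached the minimum level of a layer through 1 genotype only, 7 of them below 0, and the other 19 had 14 below 0. Defb6, a beta-defensin, had the lowest difference, -2.72. It stood at 20.3 and 151 FPKM in wild type and bitransgenic basal cells and at 1449.5 and 1566 FPKM in suprabasal cells (fold-change difference -2.78, 95% interval -4.83 to -0.74). The suprabasal level was 71.3-fold the basal one in wild type and 10.3-fold in bitransgenic skin. Lcn2, the iron-binding lipocalin of the skin's antimicrobial defence, had the highest of the 6 layer differences above 0, at 1.96. It stood at 14.4 and 11.7 FPKM in basal and 6.95 and 24.4 FPKM in suprabasal cells (fold-change difference 2.12, 95% interval 0.42 to 3.82). Among 23 cytokine and receptor loci the median was -0.06, and -0.20 at a minimum of 20 FPKM. The chemokine Ccl20, which attracts dendritic and T cells, had the lowest value there, with 56.9 and 180.3 FPKM in basal and 40.4 and 40.03 FPKM in suprabasal cells (fold-change difference -1.68, 95% interval -2.96 to -0.39).

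Transcription factors of the epidermis gave 23 of 34 loci below 0 (67.6%, against 51.6% of all loci). Their median was -0.19, and it was -0.48 among loci of at least 20 FPKM. Barx2, a homeobox factor of skin and hair, stood at 68.0 and 64.6 FPKM in wild type and bitransgenic basal cells and at 143 and 67.6 FPKM in suprabasal cells (fold-change difference -1.01, 95% interval -1.90 to -0.11). Sox9, a factor of hair follicle progenitors, stood at 30.1 and 36.1 against 70.2 and 43.5 FPKM (fold-change difference -0.95, 95% interval -1.81 to -0.08). In both, the wild type suprabasal value was the high one. The hair follicle list, which shares Barx2 and Sox9, gave 12 of 14 loci below 0 (85.7%, against 51.6% of all loci) and a median of -0.43. Notch pathway genes gave 13 of 21 below 0 (61.9%) and a median of -0.05 (-0.20 at a minimum of 20 FPKM), with Notch3 the lowest. Of 32 polarity and spindle orientation loci 22 were below 0 (68.75%, against 51.6% of all loci), with a median of -0.25. There Gnai1, a G-protein subunit of the cortical spindle complex, stood at 52.3 and 42.4 FPKM in basal and 24.6 and 8.82 FPKM in suprabasal cells (fold-change difference -1.18, 95% interval -2.15 to -0.21). Gpsm2, its binding partner in that complex, was at the upper end with 0.98, from 83.8 and 48.0 FPKM in basal and 30.7 and 35.1 FPKM in suprabasal cells (fold-change difference 0.99, 95% interval -0.38 to 2.37).

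Wnt pathway loci had no common direction. Ligands, receptors and effectors gave 22 of 35 above 0 with a median of 0.09, and Wnt targets 6 of 11 with a median of 0.14. The ligand Wnt10b was at the lower end, with 19.4 and 9.40 FPKM in wild type and bitransgenic basal cells and 10.1 and 1.08 FPKM in suprabasal cells. The bitransgenic suprabasal value lay apart below the others, and the fold change differed by -2.18 (95% interval -4.23 to -0.14). Wnt10b reached the suprabasal minimum through the wild type value only, so a suprabasal ratio below 0 was set by the filter. Wnt7b followed with 27.2 and 15.7 FPKM in basal and 18.5 and 5.18 FPKM in suprabasal cells (fold-change difference -1.04, 95% interval -2.10 to 0.01). Lef1, the transcription factor that binds beta-catenin and is itself a target, was at the other end with 12.6 and 3.02 FPKM in basal and 9.48 and 8.86 FPKM in suprabasal cells. There the bitransgenic basal value was the low one, and the fold change differed by 1.97 (95% interval 0.69 to 3.24). Lef1 reached the basal minimum through the wild type value only, so a basal ratio below 0 was set by the filter. The effectors Dvl2 and Tcf7l1 had layer differences of 1.34 and 1.10 with intervals that include 0.

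Lists of the nucleus and of division stayed near the background. Nuclear envelope genes gave 23 of 39 loci above 0, a median of 0.03 and no locus under 0.05 without adjustment. At its ends stood Tmem43, an inner nuclear membrane protein, with 1.16 (fold-change difference 1.18, 95% interval -0.05 to 2.42), and Ran, the GTPase of nuclear transport, with -1.18 (fold-change difference -1.19, 95% interval -3.27 to 0.88). Cell cycle genes gave 22 of 42 below 0 (52.4%, against 51.6% of all loci) and a median of -0.14. Top2a, the topoisomerase of dividing cells, stood at 83.2 and 196 FPKM in wild type and bitransgenic basal cells and at 30.7 and 33.9 FPKM in suprabasal cells (fold-change difference -1.09, 95% interval -2.13 to -0.05). The mitotic cyclin Ccnb1 ran the other way, with 18.6 and 13.3 FPKM in basal and 1.99 and 6.39 FPKM in suprabasal cells (fold-change difference 2.17, 95% interval 0.37 to 3.97). Ccnb1 reached the suprabasal minimum through the bitransgenic value only, so a suprabasal ratio above 0 was set by the filter. Basal keratinocyte genes had a median of 0.01 and basement membrane genes 0.01. In the p53 and senescence list 19 of 25 were below 0 (76%, against 51.6% of all loci), with a median of -0.20 that was -0.44 at a minimum of 20 FPKM. Its lowest member was Pmaip1, the pro-apoptotic Noxa, with 26.9 and 37.1 FPKM in basal and 25.05 and 11.96 FPKM in suprabasal cells (fold-change difference -1.53, 95% interval -2.57 to -0.49).

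Growth factor and antioxidant genes were spread in both directions. The insulin-like growth factor and imprinted growth list gave 9 of 18 loci on each side of 0 and a median of 0.03. Grb10, an imprinted adaptor that restrains insulin-like signalling, stood at 5.37 and 0.0545 FPKM in wild type and bitransgenic basal cells and at 9.82 and 24.2 FPKM in suprabasal cells, with a Wald interval from -1.39 to 17.23. Igf1r, the receptor, stood at 10.0 and 8.28 FPKM in basal and 9.44 and 17.3 FPKM in suprabasal cells (fold-change difference 1.15, 95% interval 0.15 to 2.15). Among 21 metallothionein and antioxidant loci 3 were under 0.05 without adjustment, all above 0, against 2.9% of all loci. These were Hmox1, the heme oxygenase, with a layer difference of 1.26, Mt2, a metal-binding metallothionein, with 1.01, and Gclc, the rate-limiting enzyme of glutathione synthesis, with 0.98. The Mt2 level was 1099 and 449 FPKM in basal and 665 and 549.8 FPKM in suprabasal cells, so its genotypes lay farther apart in basal cells. Nqo1, a quinone reductase, lay at the other end with -1.29 (fold-change difference -1.53, 95% interval -3.32 to 0.26).

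Most loci that the authors called in both layers had ratios of the same direction in both. In the authors' deposited tables the q was under 0.05 at 162 of the 8697 loci in basal cells (1.86%) and at 51 in suprabasal cells (0.586%), and at 27 in both. Of the 27, 24 were lower in bitransgenic skin of both layers, 2 were higher in both and 1, the merged 9430008C03Rik locus, went in opposite directions. Among the 24 the layer difference lay between -0.98 and 0.56 with a median of -0.52, and it was below 0 at 21 of them. These loci were selected on the same fold changes, so the counts are a description. They were not set against the share of all loci with the same direction in both layers, which was not computed. Igf2, the fetal growth factor, stood at 329 and 5.03 FPKM in wild type and bitransgenic basal cells and at 135 and 2.64 FPKM in suprabasal cells. Krt15, a keratin of basal progenitors, stood at 1602 and 308 FPKM in basal and 1025 and 124 FPKM in suprabasal cells. The AP-1 subunit Junb stood at 266 and 96.0 FPKM in basal and 229 and 52.4 FPKM in suprabasal cells. The Wald interval of the layer difference was -3.64 to 4.36 for Igf2, -2.69 to 1.36 for Krt15 and -1.91 to 0.59 for Junb, so differences of that size were not excluded. Cntfr, a cytokine receptor subunit, and Rps12, a ribosomal protein, were the 2 higher in both. Rps12 stood at 27.4 and 58.8 FPKM in basal and 22.1 and 139 FPKM in suprabasal cells (fold-change difference 1.56, 95% interval 0.09 to 3.03).

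Most calls in 1 layer alone came without a layer difference past the adjusted test. In basal cells only, 135 loci had a deposited q under 0.05 in the authors' deposited tables. The unadjusted Wald p of the layer difference was under 0.05 at 33 of these and the adjusted p at 2, Cst6 and Celf2. The suprabasal fold change had the same sign as the basal one at 120 of the 135. In suprabasal cells only, 24 loci were called, of which 16 had an unadjusted p of the difference under 0.05, none an adjusted one, and 20 the same sign in basal cells. Since these calls and the difference rest on the same fold changes, the counts describe the overlap of the rules. The share of all loci with the same sign in both layers was not computed, so the counts of equal sign cannot be set against it.

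Opposite directions, a ratio of at least 1 in one layer and at most -1 in the other, was found at 48 loci (0.552%). At 31 the bitransgenic value was lower in basal and higher in suprabasal cells, and at 17 the reverse. The 31 include the 7 Lce1, Crct1 and 2310050C09Rik loci. An unadjusted p under 0.05 was reached by 20 of the 48, and at 11 of the 48 a single group value stood apart from the other 3. Of the 48, 35 reached the minimum level of a layer through 1 genotype only. Adamtsl4, a secreted protein of the fibrillin matrix, stood at 6.66 and 0.292 FPKM in wild type and bitransgenic basal cells and at 3.53 and 13.4 FPKM in suprabasal cells (fold-change difference 6.43, 95% interval 2.0 to 10.87). E2f3, a cell cycle transcription factor, ran the other way with 2.98 and 10.1 FPKM in basal and 8.20 and 2.84 FPKM in suprabasal cells (fold-change difference -3.29, 95% interval -6.11 to -0.47). In both genes all 4 values were low, and the 2 layers crossed. Both reached the minimum level through 1 genotype only in each layer, and through the other genotype in the other layer. The opposite signs of their 2 ratios were therefore set by the filter. Stab1, a scavenger receptor, stood at 5.69 and 16.7 FPKM in basal and 16.6 and 3.45 FPKM in suprabasal cells (fold-change difference -3.82, 95% interval -7.88 to 0.24). Stab1 reached the suprabasal minimum through the wild type value only. Sh3bgrl, a small adaptor-like protein, had the largest difference with no value standing alone, 7.61, from 30.7 and 1.11 FPKM in basal and 6.401 and 95.2 FPKM in suprabasal cells, but its interval ran from -4.68 to 22.06. Sh3bgrl reached the basal minimum through the wild type value only. The Jpx locus, an X-linked non-coding gene beside Xist, had the lowest layer difference of all, -9.67. It rested on 1 value, 515 FPKM in wild type suprabasal cells, against 1.34 FPKM in wild type basal, 5.93 FPKM in bitransgenic basal and 0.886 FPKM in bitransgenic suprabasal cells. The Jpx locus reached the basal minimum through the bitransgenic and the suprabasal minimum through the wild type value only, so the signs of both ratios were set by the filter. The Xist levels given above move with the genotype, and the part of sex in the Jpx values was not tested.

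At 65 loci (0.747%) 1 of the 4 values departed alone, by at least 2 on the log2 scale and by more than the range of the other 3. The bitransgenic suprabasal value stood alone at 31 of them, 11 high and 20 low. The bitransgenic basal value stood alone at 15, 1 high and 14 low. The wild type suprabasal value stood alone at 12, 11 of them high, and the wild type basal value at 7, 6 of them high. An unadjusted p under 0.05 was reached by 23 of the 65. In 1 layer or both 32 of the 65 (49.2%) reached the minimum level through 1 genotype only, against 14.7% of all loci. In basal cells 14 did so through the wild type and 1 through the bitransgenic value, and in suprabasal cells 21 and 1. Such a locus had to differ between the genotypes of that layer, so the counts of low bitransgenic values are a description. Since the tables were normalized separately, a departure from the values of the other layer also holds any difference of scale.

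**Figure D5:**
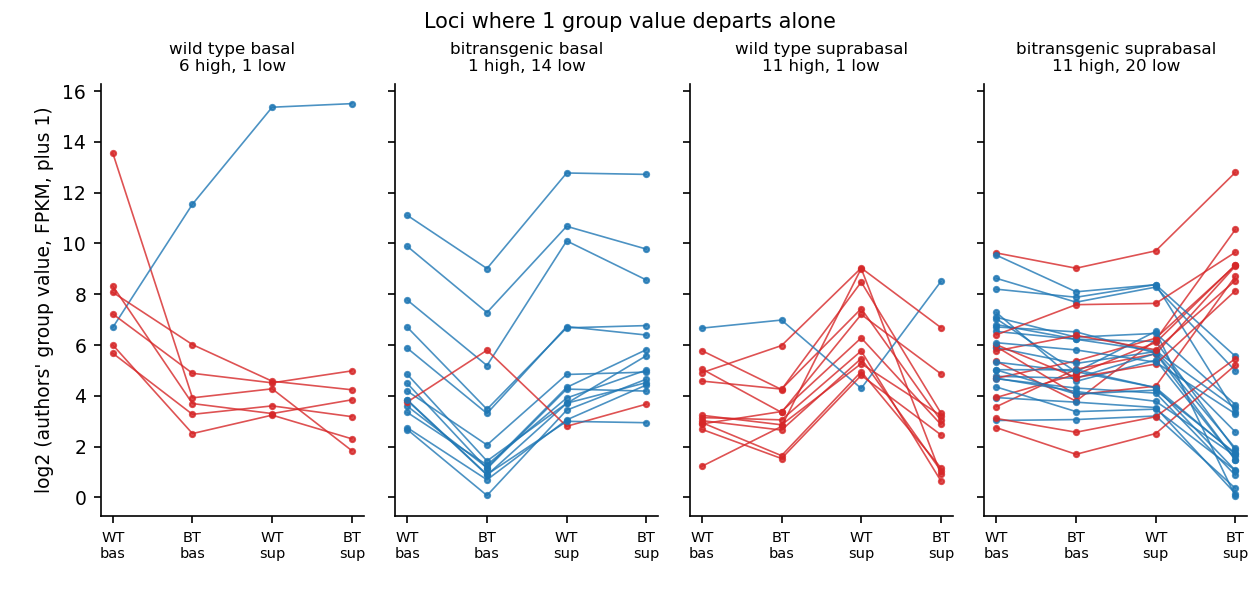
Level of the 65 loci where 1 group value departs alone, as log2 of the FPKM plus 1, in wild type (WT) and bitransgenic (BT) basal (bas) and suprabasal (sup) cells, 1 panel per departing group and 1 line per locus, red where the value is high and blue where it is low. The bitransgenic suprabasal panel holds 11 high and 20 low loci and the bitransgenic basal panel 1 high and 14 low. Of the 65 loci 32 reached the minimum level of a layer through 1 genotype only.

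Single values were extreme in wild type basal cells. Timm23, a subunit of the mitochondrial import channel, stood at 12069.8 FPKM there against 14.1 FPKM in bitransgenic basal, 18.4 FPKM in wild type suprabasal and 2.58 FPKM in bitransgenic suprabasal cells. Clec2d, a lectin ligand of natural killer receptors, stood at 319.8 FPKM there against 11.95, 8.86 and 13.3 FPKM (adjusted p = 0.088 by the Wald test on the authors' values). Srrm2, a splicing scaffold, was low there with 102 FPKM against 2985, 42121 and 46436 FPKM.

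In bitransgenic basal cells the low values included Lce1b, Lce1a1, Lce1f, Lor and Celf2, described above, and Grb10. Psen2, a subunit of gamma-secretase, stood at 1.19 FPKM there against 21.4 FPKM in wild type basal, 18.2 FPKM in wild type suprabasal and 17.2 FPKM in bitransgenic suprabasal cells (fold-change difference 4.08, 95% interval 0.84 to 7.33). Psen2 and the loci named before it reached the basal minimum through the wild type value only, so their basal ratios below 0 were set by the filter. Casp4, an inflammatory caspase, was the 1 locus that stood high there, at 54.6 FPKM against 12.5, 5.96 and 11.8 FPKM.

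In bitransgenic suprabasal cells 12 of the 20 low loci were histone genes. Most of these, such as Hist1h2ai (10.6 and 0.108 FPKM in wild type and bitransgenic suprabasal cells) and Hist1h2ac (8.22 and 0.281 FPKM), reached the suprabasal minimum through the wild type value only. Their suprabasal ratio below 0 was set by the filter. Hist1h2ak stood at 293 and 235 FPKM in wild type and bitransgenic basal cells and at 332 and 9.26 FPKM in suprabasal cells (fold-change difference -4.85, 95% interval -7.40 to -2.30). Of all 54 histone loci, a group chosen after these values were seen, the layer difference was at most -1 at 27 and at least 1 at 3. Over all loci these shares were 4.35% and 5.37%. The histone loci had a median ratio of -0.42 in the basal and -1.38 in the suprabasal layer. Their median layer difference was -0.92 against -0.02 over all loci. An unadjusted p under 0.05 was reached by 10 of the 54, against 2.9% of all loci. The group was picked for its low bitransgenic suprabasal values, and some of its loci passed through the wild type value only. Its counts and medians are therefore a description and support nothing on their own. Many histone genes are near-identical copies, so the authors' counting could have split their reads. Glul, the glutamine synthetase, was a high value in bitransgenic suprabasal cells, with 1499 FPKM against 40.1, 12.8 and 72.7 FPKM (fold-change difference 6.01, 95% interval 1.16 to 10.86).

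Many loci with a departing value hold an annotated short RNA gene. A gene for a small nucleolar, small nuclear, micro or other short RNA lay within 34 of the 65 loci (52.3%), within 1618 of all 8697 (18.6%) and within 207 of the 845 loci with a layer difference of at least 1 in size (24.5%). By departing group the share was 71.4% for wild type basal, 40% for bitransgenic basal, 50.0% for wild type suprabasal and 54.8% for bitransgenic suprabasal cells. The 34 include the merged 9430008C03Rik locus and Celf2, both called above, and Timm23, Srrm2, Glul, Hist1h2ak and the Jpx locus. Reads of a short RNA and of the gene that holds it cannot be told apart in these tables.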

How the data were processed

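RNA of sorted keratinocytes was sequenced in 10 samples of 4 groups. The authors deposited 1 table per layer with a pooled level per genotype group, a log2 fold change, a test statistic, a p-value and a q-value for each locus, per the file headers. The header does not name the unit of the level; it is read as the FPKM of Cufflinks, which the submitters' processing notes name with TopHat and the mm10 build, without versions. The deposited test statistic is a score of the authors' tool, used in 1 alternative only; in basal cells it was a median of 0.631 times the normal quantile of the deposited p-value. No read counts or depths per sample were used here, so counting intervals could not be given, and no column of another sample was found (0 columns).

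The tables were joined on locus identifier and kept at status OK in both and at least 5 FPKM in the higher group of each. With 1 FPKM added, the log2 ratio of bitransgenic over wild type was taken per layer, and the basal ratio was subtracted from the suprabasal one. A scale factor between the tables cancels in this difference apart from the added 1. The two-sided Wald test used the deposited log2 fold changes, with standard errors equal to the absolute fold change over the normal quantile of the deposited p-value. The test and its intervals are normal approximations, since no exact test can be run on 1 pooled value per group. A p at the floor of 5e-05, reached by 40 loci in basal and 33 in suprabasal cells, gives an upper bound on that error. The p-values are those of the authors' tool, and the deposited values do not show which spread they measure. The labels do not tie the samples to separate animals. The threshold was an adjusted p of 0.05 (statsmodels 0.14.6, scipy 1.17.1, pandas 2.3.3, Python 3.11.15). The test was run on simulated fold changes drawn from the standard errors it assumes, with independent layers. Such a simulation cannot show whether these errors or that independence hold in the data.

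Members, lists and the rules for the named genes were chosen with earlier results of these data known. The rule named Cst6, Kprp, the called loci, the 10 largest differences in each direction, 4 departing loci per group, 8 opposite ones per direction, the 2 highest and lowest members of each of 31 lists and the loci called in both tables. Other list members and neighbours in the text were chosen after their values were seen. Some list members are not reported here. Alternatives changed the pseudocount (5 or 0.1), the minimum level (none or 20), the centring, the standard error, merged loci and the sizes counted. Starts of loci were raised by 1, since 3374 of 7964 matched genes then have the start annotated in GENCODE M21 and 84 without it.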

Additional observations from a re-analysis of the deposited data

Results flagged for a closer look

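The response differed between the layers by the Wald test at 3 loci. For the merged locus of 9430008C03Rik, Gm23925 and Gm26003 the fold change of bitransgenic over wild type was larger by 6.35 on the log2 scale in suprabasal than in basal cells, and this rests on the bitransgenic suprabasal value of 417 FPKM. For Cst6 the fold change differed by -2.89, with the bitransgenic value above the wild type one in basal and below it in suprabasal cells. For Celf2 it differed by 3.84, and the bitransgenic basal value of 1.43 FPKM stood apart from the other 3. Cst6 and Celf2 reached the minimum level in basal cells through 1 genotype only, so the direction of their basal ratios was set by the filter. The merged locus kept an adjusted p under 0.05 in the 4 alternatives of the test that include it. Cst6 kept one in 4 of 5 and Celf2 in 2 of 4, with the exceptions given beside each in the results.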

How the results depend on the processing

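No paired analysis was possible because the tables hold 1 pooled value per group, and for the same reason no sample could be left out. The 3 calls of the Wald test became 5 with standard errors from the test statistic, of which 1 is shared (the others are Clec2d, Hist1h2ak, Mir27a and Srrm2), 1 at a minimum of 20 FPKM, 1 with merged loci left out, 1 without loci at which a value departs alone (an alternative chosen after seeing the data) and 252 at an unadjusted p under 0.05. Centring gave 3 and no minimum level gave 4. The 467 loci with a difference of at least 1 became 253 at a pseudocount of 5 and 125 at a minimum of 20 FPKM, and the 378 at most -1 became 174 and 134. Opposite directions, 31 lower in basal and higher in suprabasal cells and 17 the reverse, became 10 and 4 at a pseudocount of 5, 8 and 4 at a minimum of 20 FPKM, and 131 and 66 at a size of 0.5. The 65 departing loci became 35 at a pseudocount of 5, 35 at a minimum of 20 FPKM and 19 at a gap of 3.

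List medians stayed within 0.1 of the reported ones, with the same sign, for 24 of 24 lists after centring, at a pseudocount of 0.1 and without merged loci, for 23 of 24 at a pseudocount of 5 and without departing loci, for 20 of 24 with no minimum, for 13 of 22 at 20 FPKM and for 16 of 23 where both genotypes of each layer had to reach the minimum (chosen after seeing the data). In that last setting the barrier lipid median was -0.070, and signs changed for basal keratinocyte (-0.022) and growth factor genes (-0.066). The cornified envelope median was -0.15 with no minimum and -0.48 at 20 FPKM, and the barrier lipid median was -0.22 at a pseudocount of 5. Signs changed at 20 FPKM for basal keratinocyte (-0.012), Wnt pathway (-0.020), Wnt target (-0.0043) and growth factor genes (-0.62, and -0.016 without departing loci), whose medians lay near 0. Of 156 named loci, 149 stayed within 1.5 times at a pseudocount of 0.1 and 106 at 5. Adamts14 changed sign at a pseudocount of 0.1 (-0.11), and Vim (0.013) and Fras1 (0.25) at 5. The cause of these changes was not tested. Depth per sample is unknown, so low loci such as the Lce1 genes in bitransgenic basal cells carry an unknown counting error.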
